A study of Mus musculus with 2 samples.

Results

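Chemokines are small secreted proteins that steer the movement of leukocytes, and a few of them also guide stem cells and growing vessels. They act through receptors of the G protein-coupled class, and they are named by the spacing of their conserved cysteines (CC, CXC, CX3C and XC ligands, bound by CCR, CXCR, CX3CR and XCR receptors). Several ligands share a receptor and most inflammatory receptors take several ligands, whereas the homeostatic pairs, such as Cxcl12 with Cxcr4, are more exclusive. In the choroid, the vascular layer behind the pigment epithelium, the Ccl2 and Ccr2 pair is known for recruiting monocytes, and the Cx3cl1 and Cx3cr1 pair for marking resident microglia and macrophages.

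All mouse genes in the deposited count table whose symbols begin with Ccl, Cxcl, Cx3cl, Xcl, Ccr, Cxcr, Cx3cr, Xcr or Ackr and a digit were taken, with Ccrn4l and Ccrl genes left out. This gave 58 of 23420 genes, 38 ligands and 20 receptors. The rule used names only and no measured value, although the genes were chosen with earlier results of these data known.

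RNA came from the retinal pigment epithelium with the choroid (RPE-choroid) of untreated mice aged 11 to 13 months. In 3 animals both copies of the aryl hydrocarbon receptor gene carried the targeted allele of the strain B6.129-AhRtm1Bra/J (genotype AhR -/-). The controls were 3 animals of strain C57BL6/J (AhR +/+), which the labels do not describe as littermates, and each library pooled 2 eyes of 1 animal. No Cre line or cell-type promoter is named for the allele, and the labels state no treatment. The series title links the receptor to vessel growth in the choroid, and the comparison asks which transcripts differ between the genotypes. In what follows, 3 values in a row belong to animals 1, 2 and 3 of the group named.

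Library depth ranged from 18058725 to 28692624 gene counts. Ahr (chromosome 12, 35497974 to 35535038) was at 41.4, 45.4 and 40.6 CPM (the count of a gene scaled to the size of its library) in the knockout-labelled animals and at 19.7, 20.2 and 26.0 CPM in the wild types (log2 fold change 0.95 ± 0.16 SE, edgeR quasi-likelihood adjusted p = 0.0991). A count over the whole gene does not check the labels of a targeted allele, and the animals are therefore called knockout-labelled. Xist was at 821 and 844 CPM in animal 1 of each group and between 1.10 and 4.05 CPM in the other 4 animals. The labelled tissue was present in every library: 8 pigment epithelium markers summed to between 21040 and 39080 CPM. Ttr alone made up 13460 to 22340 CPM of these sums. The libraries also held retinal transcripts, with 7 photoreceptor markers summing to between 8203 and 17820 CPM. Knockout-labelled animal 1 stood apart in red cell transcripts, with 5 erythroid markers summing to 1073 CPM. The sums were 55.9 and 77.1 CPM in knockout-labelled animals 2 and 3 and 4.29, 20.2 and 33.7 CPM in the wild types, so the groups were apart. The share of reads aligned to more than 1 place was also apart, at 25.1, 23.6 and 22.9% in the knockout-labelled animals and 18.7, 19.4 and 19.1% in the wild types. The part of blood and of these reads in the values below was not tested. Knockout-labelled animals 2 and 3 had the highest sums over 9 cornea and conjunctiva markers, 15750 and 12110 CPM, against 2674 to 6386 CPM in the other 4 libraries.

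Of the 58 genes, 42 were measured, meaning 10 or more counts in at least 3 of the 6 libraries (28 ligands and 14 receptors). The ligands Ccl1, Ccl20, Ccl21a, Ccl21b, Ccl21c, Ccl26 and Ccl27b were listed at 0 in all 6 libraries. The Ccl21 and Ccl27 genes have near-identical copies, and reads that align to more than 1 place were left out of the gene counts, so their zeros are uncertain. Another 9 genes had some counts but too few to be measured: the ligands Ccl17, Cxcl3 and Xcl1 and the receptors Ccr1l1, Ccr3, Ccr4, Ccr6, Ccr8 and Cxcr2. A filter on low counts left 41 genes for the test, 28 ligands and 13 receptors. Cxcr1 was measured but not tested, with 0, 0 and 35 counts in the knockout-labelled animals and 8, 32 and 10 in the wild types.

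Cxcl12 and its receptors Cxcr7 and Cxcr4 had the highest levels in this tissue. Per kilobase of exon and over all 6 animals, the highest ligand was Cxcl12 at 42.6 CPM per kb, a vascular and stromal chemokine that retains and attracts cells bearing Cxcr4. Next came Ccl11 at 16.5 CPM per kb (eotaxin, an attractant of eosinophils) and Cx3cl1 at 16.2 CPM per kb (fractalkine, a membrane-tethered ligand). Ccl6 at 11.2, Ccl3 at 9.08 and Cxcl16 at 8.94 CPM per kb followed. Among receptors the highest was Cxcr7 at 24.6 CPM per kb, now named Ackr3, an atypical receptor that takes up and clears Cxcl12. Cxcr4 was at 21.9 CPM per kb and Cx3cr1 at 7.32 CPM per kb. The classical inflammatory receptors were lower, with Ccr1 at 2.63, Cxcr3 at 1.70 and Ccr2 at 1.56 CPM per kb. The lowest measured genes were Ccr9 at 0.107 and Cxcr5 at 0.153 CPM per kb among the receptors and Ccl28 at 0.162 CPM per kb among the ligands.

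**Figure D1:**
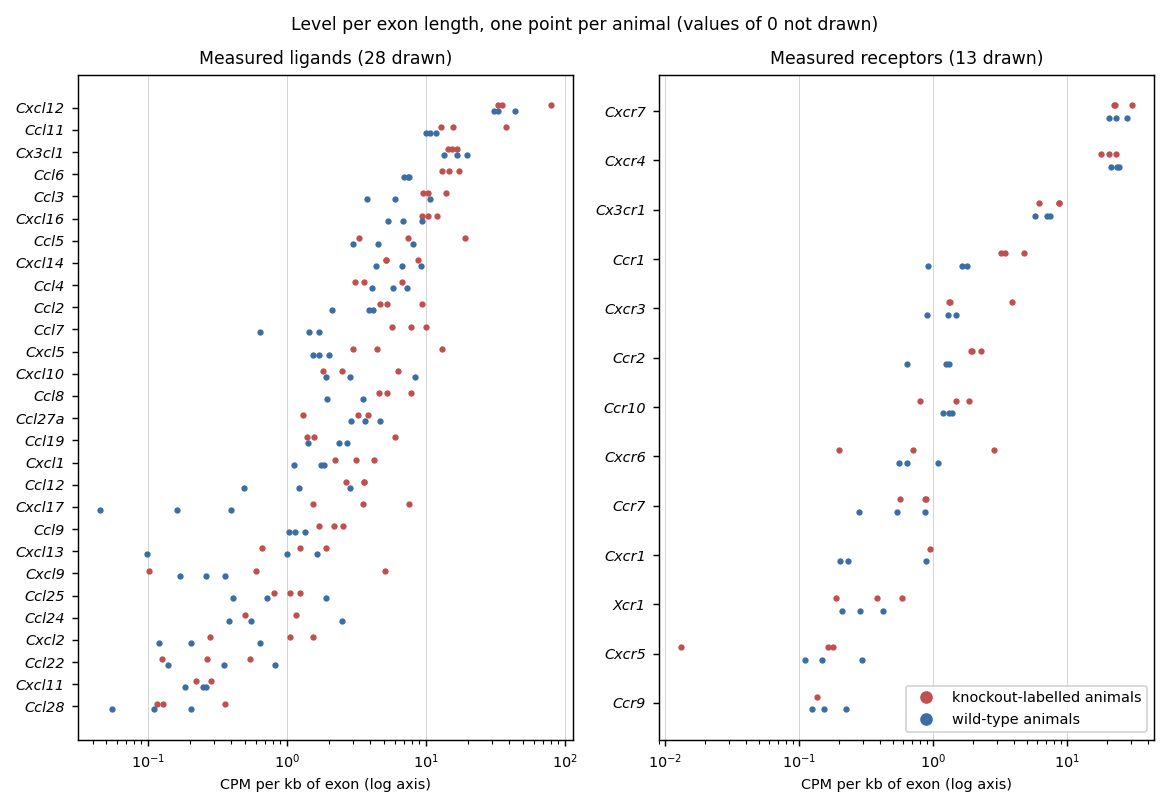
Level of each measured ligand (left, n = 28) and receptor (right, 13 of 14 drawn) in CPM per kilobase of exon on a log axis, 1 point per animal, knockout-labelled in red and wild type in blue. Cxcl12 is the highest ligand and Cxcr7 the highest receptor by mean in both groups, and the red and blue points separate for Ccl6, Ccl7, Cxcl17, Ccr1 and Ccr2.

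More of these genes lay higher than lower in the knockout-labelled animals, and none passed the test across all genes. The log2 fold change was above 0 for 30 of the 41 tested genes, 73.2%, against 51.2% of all 15796 genes tested. Its median was 0.47 over the 41, 0.72 over the ligands and 0.32 over the receptors, against 0.010 over all genes. At an adjusted p under 0.05 in the edgeR quasi-likelihood test 0 of 41 were called, where the share of all genes called was 0.0506%. At an unadjusted p under 0.05 there were 10 genes higher, 24.4% of the 41 (7.55% of all genes), and 0 lower (6.62% of all genes). The groups did not overlap for 12 genes, with every knockout-labelled animal above every wild type, 29.3% of the 41 (10.03% of all genes). There were 0 genes with the groups apart in the other direction (9.96% of all genes). These 12 were the ligands Ccl2, Ccl6, Ccl7, Ccl8, Ccl9, Ccl11, Cxcl1, Cxcl5, Cxcl16 and Cxcl17 and the receptors Ccr1 and Ccr2. Cxcl17, also among the 10, passed the filter on low counts only through the knockout-labelled group and had to differ. Its place in these counts and in the calls below is therefore no support for a difference.

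Other tests did call some of them. DESeq2 called 5 of the 41 (3.06% of all genes), and so did the edgeR exact test (2.26% of all genes). In both the genes were Ccl6, Ccl7, Cxcl5, Cxcl17 and Ccr1, all higher in the knockout-labelled animals. The authors' deposited table lists 50 of the 58 genes, and 6 had an FDR under 0.05, all higher in the knockout in that table (2.37% of its 16561 genes). Besides the same 5 it called the receptor Cxcr2, whose counts were all in the knockout-labelled animals. The median over all tested chemokine genes was 0.14 without knockout-labelled animal 1 and 0.79 without animal 3. The receptor median was 0.13 without animal 1 and 0.12 without animal 2, and the ligand median 0.43 without animal 1. Without wild-type animal 2, the groups were apart for 20 of 42 genes, 2 of them lower. This was 47.6% against 26.5% of all genes in either direction in that fit. Without knockout-labelled animal 1 they were apart for 13 of 42, 0 of them lower, 31.0% against 42.1% of all genes in either direction. In that fit 7 of 42 were at an unadjusted p under 0.05, 16.7% against 23.0% of all genes, again in either direction. Counted in both directions together, the chemokine genes were thus below the background once that animal was left out. The share of all genes that were higher was not counted apart in that fit, so the higher direction alone is not compared. A value above 0 was still found for 26 of 42 (61.9%), against 50.6% of all genes.

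**Figure D2:**
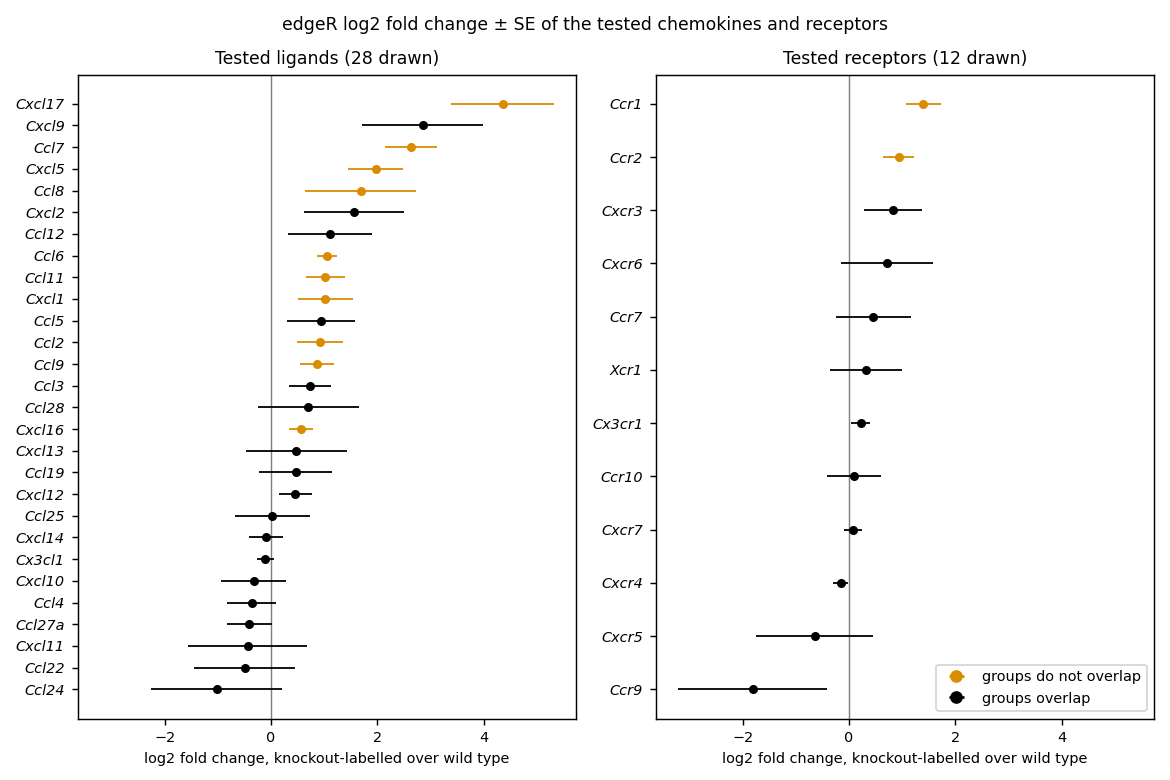
edgeR log2 fold change, knockout-labelled over wild type, ± SE for the 28 tested ligands (left) and 12 of the 13 tested receptors (right), ordered by size, with orange for the 12 genes whose groups do not overlap. All 12 orange points lie to the right of 0, led by Cxcl17 at 4.36 and Ccl7 at 2.63. Cxcl17 passed the filter on low counts only through the knockout-labelled group.

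The first run of CC ligands on chromosome 11 holds monocyte and eosinophil chemoattractants, and its 5 tested genes had higher mean levels in the knockout-labelled animals. Ccl2, Ccl7, Ccl11, Ccl12, Ccl8 and Ccl1 lie side by side at 82035571 to 82305690 of chromosome 11 (mm10). The 5 tested log2 fold changes had a median of 1.11 and a range of 0.92 to 2.63. The groups were apart, with the knockout-labelled animals higher, for 4 of the 5 (10.03% of all genes). Ccl7, which attracts monocytes through Ccr2 and Ccr1, was at 8.001, 6.31 and 4.55 CPM in the knockout-labelled animals and at 1.17, 1.36 and 0.518 CPM in the wild types. Every knockout-labelled animal lay more than 3 CPM above the highest wild type, a 6.19-fold difference in the fit (log2 fold change 2.63 ± 0.49 SE, edgeR adjusted p = 0.126). DESeq2 gave Ccl7 an adjusted p of 6.3e-05, and the edgeR exact test 0.000192.

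Ccl2, the best known attractant of monocytes in the eye, was at 7.62, 3.79 and 4.27 CPM in the knockout-labelled animals and at 3.16, 3.39 and 1.73 CPM in the wild types. The groups were narrowly apart, and knockout-labelled animal 1 was the highest (log2 fold change 0.92 ± 0.44 SE, edgeR adjusted p = 0.382). Without that animal the log2 fold change of Ccl2 was 0.55. Ccl12, another Ccr2 ligand, was at 1.42, 1.92 and 1.93 CPM in the knockout-labelled animals and at 0.263, 1.53 and 0.657 CPM in the wild types, so that the groups overlapped (log2 fold change 1.11 ± 0.79 SE, 0.69 when wild-type animal 1 was left out and 1.92 when animal 2 was). Ccl8, which binds Ccr8 in the mouse, was at 4.02, 2.36 and 2.70 CPM in the knockout-labelled animals. In the wild types it was listed at 0 in animal 1 and stood at 1.82 and 1.00 CPM in animals 2 and 3. The fold change of Ccl8 was smaller without wild-type animal 1: the log2 value was 1.69 ± 1.05 SE (edgeR adjusted p = 0.502) with all 6 animals and 1.10 without that one.

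Ccl11 had the highest level per kilobase of this run. It was at 40.7, 14.1 and 17.0 CPM in the knockout-labelled animals and at 10.8, 12.9 and 11.7 CPM in the wild types. The wild types lay close together, and knockout-labelled animal 1 alone was far above them (log2 fold change 1.02 ± 0.37 SE, edgeR adjusted p = 0.27). Without that animal the log2 fold change of Ccl11 was 0.39. Its receptor Ccr3, carried by eosinophils, had 7 counts in all, each of them in wild-type animal 2. Ccl24, the other eotaxin measured, was at 1.51, 0 and 0.645 CPM in the knockout-labelled animals and at 0.714, 0.496 and 3.21 CPM in the wild types (log2 fold change -1.02 ± 1.23 SE). Ccl24 was high in wild-type animal 3 only, and the sign turned to 0.23 without it.

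The second CC ligand run on chromosome 11, Ccl5, Ccl9, Ccl6, Ccl3 and Ccl4 at 83525778 to 83664683, held the gene with the smallest edgeR p. Ccl6, a mouse ligand of Ccr1 made by myeloid cells, was at 25.1, 21.2 and 18.9 CPM in the knockout-labelled animals and at 10.9, 10.7 and 9.99 CPM in the wild types. Both groups were tight and far apart, 21.8 ± 3.14 against 10.5 ± 0.490 CPM (SD, n = 3 each), a 2.06-fold difference. The log2 fold change was 1.04 ± 0.19 SE with an edgeR adjusted p of 0.124, and DESeq2 gave 0.000667. It lay between 0.93 and 1.16 under every alternative tried. Ccl9, a close relative of Ccl6 and also a Ccr1 ligand, was at 7.62, 6.59 and 5.12 CPM in the knockout-labelled animals and at 4.06, 3.43 and 3.14 CPM in the wild types. These groups did not overlap either (log2 fold change 0.86 ± 0.32 SE, edgeR adjusted p = 0.282).

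The other genes of that run overlapped between the groups. Ccl3, a macrophage inflammatory protein that binds Ccr1, was at 10.8, 7.30 and 7.94 CPM in the knockout-labelled animals and at 2.90, 8.18 and 4.60 CPM in the wild types (log2 fold change 0.74 ± 0.39 SE, 0.44 without wild-type animal 1). Ccl5, an attractant of T cells and monocytes, was at 3.98, 10.3 and 1.77 CPM against 2.41, 4.30 and 1.59 CPM, with knockout-labelled animal 2 alone well above the rest. The log2 fold change of Ccl5 was 0.94 ± 0.64 SE with that animal and 0.058 without it. Ccl4, a close relative of Ccl3, had the opposite sign (log2 fold change -0.36 ± 0.46 SE).

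**Figure D3:**
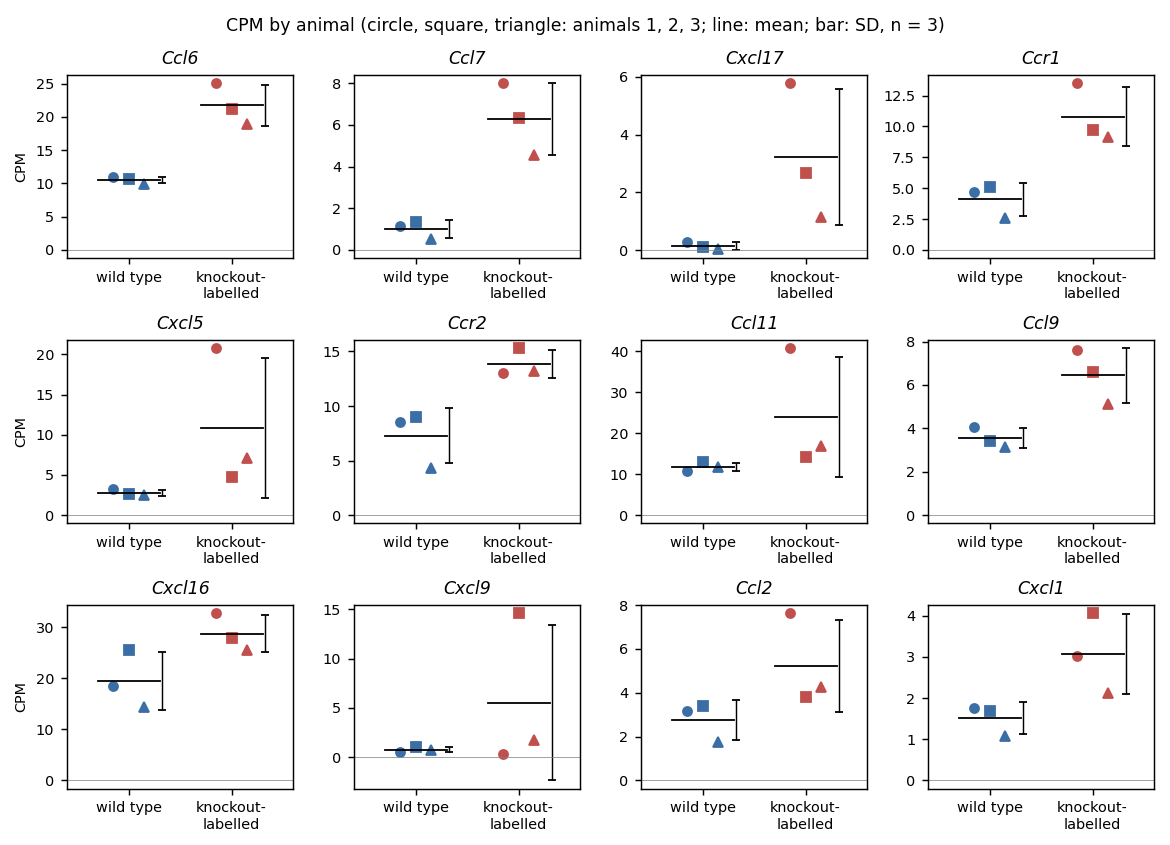
CPM of the 12 tested genes with the smallest edgeR p, 1 symbol per animal (circle, square and triangle for animals 1, 2 and 3), with the group mean as a line and the SD as a bar (n = 3 each, linear axes). Ccl6, Ccl7, Ccr1 and Ccr2 are higher in all 3 knockout-labelled animals, whereas Cxcl5 and Ccl11 are led by animal 1 and Cxcl9 by animal 2.

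Of the receptors of these ligands, Ccr1 and Ccr2 lay higher in every knockout-labelled animal. Ccr1, carried by monocytes and neutrophils, was at 13.5, 9.71 and 9.14 CPM in the knockout-labelled animals and at 4.66, 5.08 and 2.59 CPM in the wild types. Every knockout-labelled animal was above every wild type by more than 4 CPM, a 2.63-fold difference (log2 fold change 1.39 ± 0.33 SE, edgeR adjusted p = 0.162, DESeq2 adjusted p = 0.00995). Ccr2, the receptor of classical monocytes, was at 13.1, 15.3 and 13.2 CPM in the knockout-labelled animals and at 8.50, 8.97 and 4.35 CPM in the wild types. The groups were apart with wild-type animal 3 the lowest (log2 fold change 0.93 ± 0.30 SE, edgeR adjusted p = 0.232).

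Macrophage and monocyte markers were given beside these receptors as a check on cell content. Over 13 markers the summed level was 2338, 2753 and 2496 CPM in the knockout-labelled animals and 2020, 2850 and 1847 CPM in the wild types, ranges that overlapped, but Lyz2 alone made up 1231 to 2167 CPM of each sum. Of the 13, 10 had a log2 fold change above 0 (51.2% of all genes), with a median of 0.18 and 0 called. At an unadjusted p under 0.05, 2 were higher and 0 lower (7.55% and 6.62% of all genes). The 2 were F13a1 (log2 fold change 0.66) and Cd68 (0.45). Below 0 were Csf1r (-0.28), Cd163 (-0.12) and Mrc1 (-0.018). The monocyte marker Ly6c2 had a log2 fold change of 1.67 ± 0.94 SE (edgeR unadjusted p = 0.107). It was at 2.97, 1.65 and 0.403 CPM against 0.226, 0.826 and 0.518 CPM, so the groups overlapped. In tissue RNA, more cells of a type and more RNA per cell cannot be told apart, and the part of cell numbers in the values of Ccr1, Ccr2 and their ligands was not tested.

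The CXC ligands that attract neutrophils formed the next group. Cxcl5, Cxcl3, Cxcl1 and Cxcl2 lie together on chromosome 5 at 90759360 to 90905938. All 3 tested genes had a log2 fold change above 0 (51.2% of all genes). The groups were apart, with the knockout-labelled animals higher, for 2 of the 3 (10.03% of all genes). Cxcl5, an epithelial neutrophil attractant, was at 20.8, 4.72 and 7.05 CPM in the knockout-labelled animals and at 3.20, 2.69 and 2.45 CPM in the wild types. The lowest knockout-labelled animal was still above the highest wild type, and animal 1 was several times above the other two (log2 fold change 1.97 ± 0.52 SE, edgeR adjusted p = 0.185, DESeq2 adjusted p = 0.0113). Without animal 1 the log2 fold change of Cxcl5 was 1.08. Cxcl1 was at 3.02, 4.06 and 2.14 CPM in the knockout-labelled animals and at 1.77, 1.69 and 1.07 CPM in the wild types, apart at low levels (log2 fold change 1.02 ± 0.52 SE, edgeR adjusted p = 0.409). Cxcl2, named here outside the rule, was at 1.97, 2.85 and 0.524 CPM against 0.226, 1.198 and 0.380 CPM, and its groups overlapped. Cxcl3 had 9 counts in all, all of them in the wild types.

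Cxcr2, the neutrophil receptor of these ligands, was too low for the filter and is named here because of its values. It had 48, 19 and 9 counts in the knockout-labelled animals and 0, 0 and 0 in the wild types. Against a floor of 3 counts over the wild-type group, the knockout-labelled level was at least 30.2-fold higher. The authors' deposited table gave Cxcr2 an FDR of 0.00455. With all its counts in the knockout-labelled animals, Cxcr2 could pass a filter on low counts only through them. It was also picked for its values. The FDR, the fold bound and its place among the authors' calls are therefore no support for a difference. With no filter on low counts the edgeR quasi-likelihood adjusted p of Cxcr2 was 0.168.

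Some markers of neutrophils had higher levels beside these genes. The summed level of 10 neutrophil markers was 138, 75.0 and 89.2 CPM in the knockout-labelled animals and 22.8, 20 and 16.9 CPM in the wild types. Of 6 tested markers 5 had a log2 fold change above 0 (51.2% of all genes), with a median of 2.81. The groups were apart, with the knockout-labelled animals higher, for 3, namely Ltf, S100a8 and S100a9 (10.03% of all genes). Ltf, which encodes lactotransferrin of neutrophil granules and of mucosal and tear secretions, rose and was the only one called (88.0, 46.0 and 62.2 CPM against 6.62, 1.82 and 3.25 CPM, edgeR adjusted p = 0.0389). Ltf made up most of the sum in each knockout-labelled animal. S100a9 was at 15.4, 7.08 and 9.51 CPM against 2.63, 0.868 and 0.380 CPM, whereas Csf3r (log2 fold change 0.33) and Camp (-0.20) had overlapping groups. The granule genes Ngp, Mpo and Elane were listed at 0 in all 6 libraries. The part of neutrophils in the levels of Cxcl5, Cxcr2 and Ccr1 was not tested.

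The stretches before the start sites of Cxcl1 and Cxcl2 are shown because these genes are neighbours and both hold a match to the motif of NF-kB, the transcription factor classically known to induce inflammatory chemokines. Ccl9 is shown as the other gene with groups apart and such a match, and Ccr1 as the only searched gene with groups apart and a match to the core bound by AhR. That core is GCGTG, which reads CACGC on the other strand. Sequences are from RefSeq (GRCm38.p6, the assembly also called mm10), read 5′ to 3′ on the strand of the gene, with matches to either motif in capitals. The windows are chr5:90891154-90891204 (plus strand) for Cxcl1, chr5:90903707-90903832 (plus strand) for Cxcl2, chr11:83578642-83578691 (minus strand) for Ccl9 and chr9:123968693-123968737 (minus strand) for Ccr1. Cxcl2 holds 2 AhR cores before its NF-kB match.
Cxcl1: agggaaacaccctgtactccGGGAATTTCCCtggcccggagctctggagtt
Cxcl2: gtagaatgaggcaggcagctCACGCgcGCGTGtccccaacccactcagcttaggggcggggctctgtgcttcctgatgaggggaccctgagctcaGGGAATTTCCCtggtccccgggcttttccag
Ccl9: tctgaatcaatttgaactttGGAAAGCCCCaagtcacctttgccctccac
Ccr1: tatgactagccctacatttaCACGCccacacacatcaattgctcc

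Promoters of 42 of the 58 genes were in the RefSeq table, and 250 bases before each start were searched on both strands. The NF-kB motif was found in 8 of 42 (19.0%), against 3.90% of 32851 promoters of the same length. Besides Cxcl1, Cxcl2 and Ccl9, these were Cxcl3, Cxcl10, Ccl20, Ccr3 and Ccr6. Cxcl10 had a log2 fold change of -0.33, and Cxcl3, Ccl20, Ccr3 and Ccr6 were not measured. The AhR core was found in 14 of 42 (33.3%), against 28.2% of those promoters. The annotated start lay in a transcript of the gene for 35 of the 42, and over these the NF-kB motif was in 6 (17.1%) and the AhR core in 11 (31.4%). Cxcl5 had no promoter in the table and was not searched. Among the 6 genes with groups apart and a promoter in the table, 2 held the NF-kB motif and 1 the AhR core. A match is a description of letters and does not show that a factor binds.

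Cxcl17, a mucosal chemokine made by epithelia, had the largest fold change among the tested genes. Its counts were 138, 49 and 29 in the knockout-labelled animals and 8, 3 and 1 in the wild types, so it passed the filter on low counts only through the group where it was high and had to differ. It was at 5.78, 2.69 and 1.17 CPM in the knockout-labelled animals and at 0.301, 0.124 and 0.0346 CPM in the wild types. The groups were well apart, although the knockout-labelled animals differed widely among themselves (log2 fold change 4.36 ± 0.96 SE, edgeR adjusted p = 0.145, DESeq2 adjusted p = 0.000278). When the mean level of the cornea and conjunctiva list was added to the fit, the log2 fold change of Cxcl17 was 4.57 (edgeR adjusted p = 0.197).

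Cxcl9, Cxcl10 and Cxcl11, the interferon-induced ligands of Cxcr3, did not move as one. They lie on chromosome 5 at 92321347 to 92365485. Cxcl9 was at 0.293, 14.6 and 1.73 CPM in the knockout-labelled animals and at 0.489, 1.03 and 0.760 CPM in the wild types. Knockout-labelled animal 2 alone was high and animal 1 was below every wild type (log2 fold change 2.85 ± 1.13 SE, edgeR adjusted p = 0.312). The value was 0.41 without animal 2, and 3.41 without animal 1, where it was called (edgeR adjusted p = 0.048). Cxcl11 was at 0.838, 0 and 1.09 CPM against 0.940, 0.702 and 1.00 CPM (log2 fold change -0.44 ± 1.12 SE). Cxcl10, named here outside the rule, was at 3.77, 9.55 and 2.78 CPM against 12.8, 2.93 and 4.35 CPM, highest in wild-type animal 1. Cxcr3, found on activated T cells, was at 6.70, 2.31 and 2.30 CPM against 2.26, 2.56 and 1.56 CPM, and its log2 fold change was 0.83 ± 0.55 SE and 0.11 without knockout-labelled animal 1.

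The T cell and NK cell markers were at 36.4, 32.2 and 17.0 CPM as a sum over 11 genes in the knockout-labelled animals and at 19.7, 17.6 and 15.6 CPM in the wild types. Of 10 tested markers 7 had a log2 fold change above 0 (51.2% of all genes), and 0 were called. The groups were apart with the knockout-labelled animals higher for 3 and lower for 2 (10.03% and 9.96% of all genes). Of these, Cd3g passed the filter on low counts only through the knockout-labelled group (1.72, 0.823 and 0.524 CPM against 0.226, 0 and 0.207 CPM). Klrb1c passed it only through the wild types (0.377, 0 and 0.322 CPM against 1.17, 0.826 and 0.760 CPM). Both had to differ, so their place in these counts is no support for a difference. The T cell kinase Lck was among the higher (log2 fold change 1.01), and the NK and cytotoxic genes Klrb1c (-1.92) and Gzma (-1.79) were the lower ones. Their part in the values of Cxcr3, Cxcr6 and Ccl5 was not tested. Cxcr6, a receptor of tissue T cells, was at 5.49, 0.384 and 1.37 CPM against 2.11, 1.07 and 1.24 CPM. Only animal 1 was high, and the log2 fold change of Cxcr6 went from 0.72 to -0.73 without it. Its ligand Cxcl16, a membrane-bound chemokine of macrophages and endothelium, was at 32.8, 28.0 and 25.6 CPM against 18.5, 25.6 and 14.4 CPM. The groups were barely apart, at 25.58 against 25.57 CPM for the nearest animals (log2 fold change 0.56 ± 0.22 SE, edgeR adjusted p = 0.311, and 0.36 without wild-type animal 3). Exons of Cxcl16 overlap those of Zmynd15 on the other strand by 552 bases, and with the strand setting of the counting not given, reads there cannot be told apart.

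The homeostatic pairs had overlapping groups. Cxcl12 was at 569, 238 and 253 CPM in the knockout-labelled animals and at 222, 312 and 237 CPM in the wild types. Knockout-labelled animal 1 was the only high one (log2 fold change 0.46 ± 0.32 SE, edgeR adjusted p = 0.552), and without it the value was -0.067. Cxcr4 was at 32.3, 42.3 and 37.3 CPM against 44.2, 38.5 and 42.5 CPM (log2 fold change -0.16 ± 0.15 SE). Cxcr7 was at 76.4, 102 and 74.6 CPM against 93.7, 77.9 and 69.1 CPM (log2 fold change 0.072 ± 0.16 SE). Both receptors of Cxcl12 had overlapping groups.

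Cx3cl1 was at 54.4, 50.9 and 59.5 CPM in the knockout-labelled animals and at 69.6, 59.9 and 48.2 CPM in the wild types (log2 fold change -0.11 ± 0.15 SE). Cx3cr1, its receptor on microglia and macrophages, was at 39.2, 39.5 and 27.7 CPM against 25.9, 33.7 and 31.96 CPM (log2 fold change 0.22 ± 0.18 SE). Both genes overlapped between the groups, whereas Ccr1 and Ccr2 did not, and the difference between these receptors was not tested.

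The genes with the lowest fold changes were all scarce. Ccr9, a receptor of gut-homing T cells, was listed at 0 in knockout-labelled animals 1 and 2 and stood at 0.765 CPM in animal 3, against 0.865, 0.702 and 1.24 CPM in the wild types. Animal 3 lay inside the wild-type range, and the log2 fold change of Ccr9 was -1.82 ± 1.40 SE (edgeR adjusted p = 0.598). Its ligand Ccl25 was at 1.93, 1.65 and 1.25 CPM against 0.639, 1.11 and 2.97 CPM, with a log2 fold change of 0.025 ± 0.71 SE. Cxcr5, the B cell follicle receptor, was at 0.503, 0.549 and 0.0403 CPM against 0.338, 0.455 and 0.898 CPM (log2 fold change -0.64 ± 1.10 SE). Its ligand Cxcl13 was at 2.22, 1.43 and 0.765 CPM against 0.113, 1.16 and 1.90 CPM (log2 fold change 0.47 ± 0.95 SE). Ccl22, a ligand of Ccr4, was at 0.587, 1.21 and 0.282 CPM against 0.790, 1.82 and 0.311 CPM (log2 fold change -0.50 ± 0.96 SE). None of these had groups apart, and whether differences of this size could be detected at this depth was not tested.

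The naming rule took 30 of the 41 tested genes. The 11 others had log2 fold changes from -0.41 (Ccl27a) to 1.56 (Cxcl2), adjusted p from 0.492 to 0.956 and mean levels from 0.607 to 12.04 CPM, and the groups overlapped in all 11. They include Ccl27a and Ccl28 with their receptor Ccr10, the lymphoid pair Ccl19 and Ccr7, and Xcr1 of cross-presenting dendritic cells. Besides Cxcl16, exons of Ccl25, Ccl27a, Ccr9, Cx3cr1, Cxcl11, Cxcr5 and Xcl1 overlap a gene on the other strand, by 1582 bases in Cxcl11 and by 8 to 110 bases in the rest, so that part of their counts is uncertain. Ccr9 also overlaps Gm17200 on its own strand by 269 bases.

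**Figure D4:**
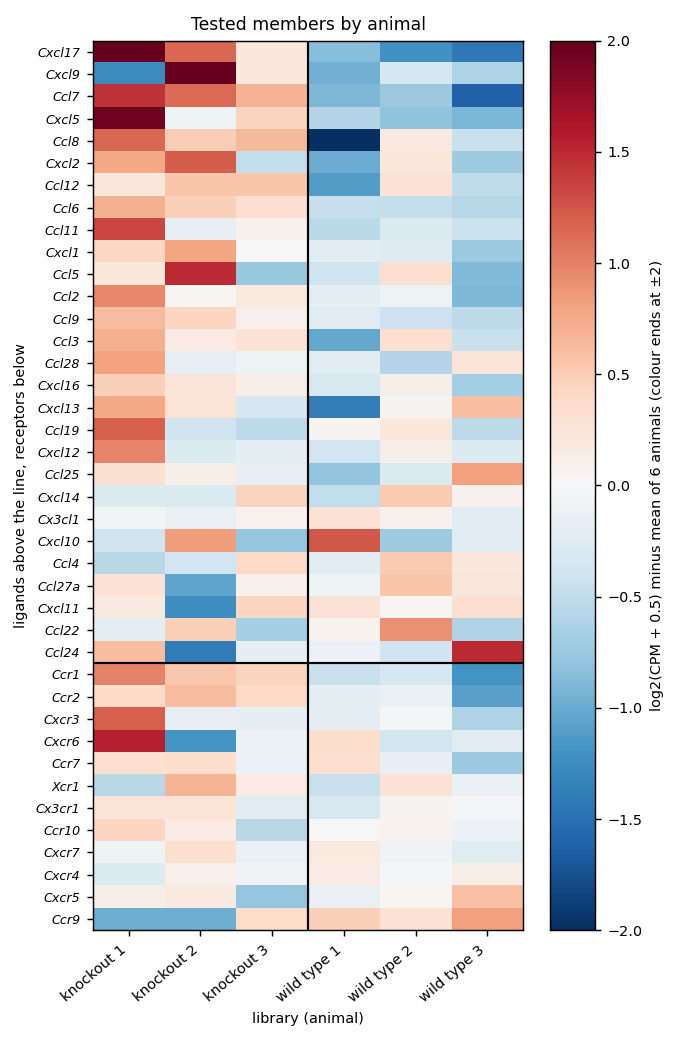
Deviation of each tested gene in each animal from its mean over the 6 animals, in log2(CPM + 0.5), red for above and blue for below (the colours end at 2 and -2), with ligands above and receptors below the horizontal line groups split by the vertical line, and 1 receptor not drawn. Knockout-labelled animal 1 is the reddest column (median deviation 0.42) and wild-type animal 3 the bluest (-0.42).

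The animals of a group did not contribute alike. Knockout-labelled animal 1 was the highest of 6 in 18 of the 41 tested genes, 43.9%, against 16.1% of all genes, and in 10 of the 12 genes with groups apart. Wild-type animal 3 was the lowest in 15 of the 41, 36.6%, against 15.1% of all genes, and in 10 of those 12. In those 12 the highest animal had to be knockout-labelled and the lowest a wild type. The shares of all genes are therefore no background for the counts among the 12. The median deviation over the 41 genes, in log2(CPM + 0.5), was 0.42, 0.26 and 0.069 in the knockout-labelled animals and -0.21, -0.030 and -0.42 in the wild types. Each knockout-labelled animal was above each wild type on this measure. Animal 1 was also the library with the highest red cell markers.

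Leaving that animal out changed which genes were called. Without it the edgeR quasi-likelihood test called 3 of 42 genes, where 4.95% of all genes were called. These were Ccl6 (log2 fold change 0.93, adjusted p = 0.0369), Ccl7 (2.42, adjusted p = 0.0459) and Cxcl9. Ccl6, Ccl7, Ccl9, Ccr1, Ccr2, Cxcl17 and Cxcl1 had log2 fold changes that moved by less than 1.5 times when it was left out (a ratio of log2 values), and those of Ccl2, Ccl11, Cxcl5, Cxcl12, Cxcr3 and Cxcr6 moved by more.

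**Figure D5:**
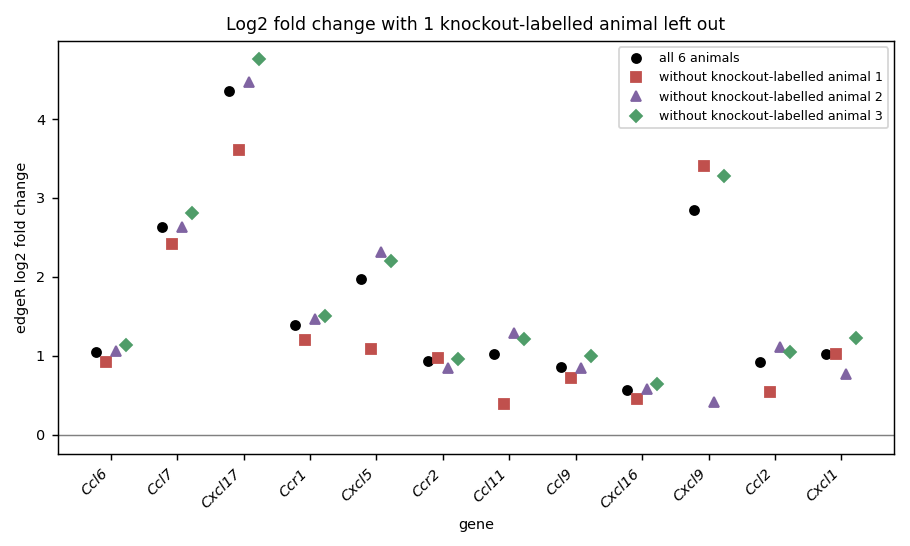
edgeR log2 fold change of the 12 tested genes with the smallest p over all 6 animals (black) and with knockout-labelled animal 1, 2 or 3 left out (red, purple and green). The values of Ccl6, Ccl7, Ccr1 and Ccr2 stay close together, Ccl11 drops to 0.39 and Cxcl5 to 1.08 without animal 1, and Cxcl9 drops to 0.41 without animal 2.

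The other genes of chemokine biology were read from lists of their inducers, carriers and downstream parts, and 0 of their members were called (0.0506% of all genes). Of 19 tested inducers of chemokines, 15 had a log2 fold change above 0 (median 0.35), and 7 were higher and 0 lower at an unadjusted p under 0.05. For this list and those below, the shares of all genes were 51.2% above 0, 7.55% higher and 6.62% lower at that p. Stat3, the transcription factor downstream of interleukin 6, was at 185, 183 and 190 CPM against 141, 130 and 116 CPM (log2 fold change 0.53 ± 0.12 SE, edgeR adjusted p = 0.161). Nfkbiz, a co-activator of NF-kB, had a log2 fold change of 0.85 ± 0.23 SE, and the cytokine Il1a one of 1.15 ± 0.32 SE (edgeR adjusted p = 0.185 for each). Below 0 were Rela (-0.26), Relb (-0.12), Tnfrsf1a (-0.092) and Nfkb1 (-0.043). Of the 23 genes listed, the cytokines Il6, Il17a, Ifng and Ifnb1 were too low to be tested. Il17a and Ifnb1 were listed at 0 in every library.

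Of 14 tested adhesion molecules of leukocytes and endothelium, 8 were above 0 (median 0.20), and 4 were higher and 0 lower at an unadjusted p under 0.05. The integrin chain Itgam of myeloid cells was at 38.5, 74.6 and 71.7 CPM against 40.5, 29.3 and 22.4 CPM (log2 fold change 1.00 ± 0.28 SE, edgeR adjusted p = 0.191). Among the knockout-labelled animals Itgam was lowest in animal 1, and the groups overlapped. Itgal had a log2 fold change of 0.70 ± 0.23 SE and the junction protein F11r one of 0.59 ± 0.23 SE. F11r was at 90.6, 168.5 and 126.4 CPM against 106.7, 73.0 and 76.1 CPM, so its groups overlapped. Itgam and F11r, like the cornea and conjunctiva markers, were highest in knockout-labelled animals 2 and 3. A link was not tested.

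Of 13 tested proteases and proteoglycans that cleave or hold chemokines, 8 were above 0 (median 0.070), and 1 was higher and 2 lower at an unadjusted p under 0.05. Hspg2, the heparan sulphate proteoglycan of basement membranes, was at 169, 162 and 160 CPM against 243, 240 and 212 CPM (log2 fold change -0.50 ± 0.12 SE, edgeR adjusted p = 0.172). Gpc1 had a log2 fold change of -0.33 ± 0.13 SE and Sdc1 one of 0.88 ± 0.39 SE. Sdc1 was at 100.9, 309.5 and 253.6 CPM against 175.1, 93.12 and 92.35 CPM, so its groups overlapped. Like the cornea and conjunctiva markers, Sdc1 was highest in knockout-labelled animals 2 and 3, and a link was not tested. Of 30 tested components of receptor signalling, 14 were above 0 (median -0.11), and 2 were higher and 3 lower at an unadjusted p under 0.05. Prex1, an activator of Rac in migrating cells, had a log2 fold change of -0.55 ± 0.14 SE, Rgs10 one of 0.63 ± 0.17 SE and Rac1 one of 0.39 ± 0.13 SE.

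Of 11 tested chemokine-related genes whose symbols fall outside the choice by name, 5 were above 0 (median -0.029), and 1 was higher and 0 lower at an unadjusted p under 0.05. That gene was Ppbp, a platelet-stored ligand of Cxcr2, at 20.9, 5.60 and 6.49 CPM in the knockout-labelled animals and at 1.62, 3.18 and 4.32 CPM in the wild types (log2 fold change 1.86 ± 0.56 SE, edgeR adjusted p = 0.219). Knockout-labelled animal 1 was by far the highest, as for Cxcl5. Pf4, the other platelet chemokine, had a log2 fold change of 0.81 ± 0.56 SE, and Cmklr1, the chemerin receptor, one of -0.33 ± 0.21 SE.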

How the data were processed

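Gene counts were deposited as whole numbers, 1 column per animal (3 per genotype). The authors made them with TopHat, Bowtie and HTSeq on mm10, per the submitters' processing notes, and versions, annotation and strand setting are not given there. A table of the authors' own edgeR results was also deposited, with a log2 fold change, a mean level in log2 CPM, a p-value and an FDR for each gene, and its fold changes were turned to knockout over wild type. The count table's 5 tally rows entered neither library sizes nor the fit. As a share of all rows, unassigned reads made up 14.4 to 16.8% and ambiguous reads 0.417 to 0.784%. In 27 rows the name reads as a date.

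The test was edgeR's quasi-likelihood test (edgeR 4.0.16, R 4.3.3; filterByExpr with minimum count 10 and minimum total 15, TMM, genotype as the only term). P-values were Benjamini-Hochberg adjusted over 15796 genes and called under 0.05. SE is the absolute log2 fold change over the square root of F. CPM uses TMM-adjusted library sizes, and CPM per kb the union exon length of GENCODE M21, which also gave coordinates (57 of 58 genes matched). The common biological coefficient of variation was 0.28. Alternatives were RLE and upper-quartile factors, no filter, a filter of CPM 1 in 3 libraries, DESeq2 1.42.0, limma-voom (limma 3.58.1), edgeR's exact test, a block on animal number, a cornea marker covariate, a GC correction, and each animal left out. The fits were tested on simulated data.

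Values in all animals are given for the 12 tested genes with the smallest p, the 5 with the largest and the 5 with the lowest fold changes, the 5 ligands and 5 receptors with the highest mean CPM, and their measured partners. Of each pathway list up to 3 genes with the smallest p are named. The genes and lists were chosen with earlier results of these data known. The labels name separate animals, and each deposited entry stands for 1 group. Same-numbered animals did not deviate together (correlations of -0.096, -0.0921 and -0.0672), so the numbers were not used as pairs. The values of 1 receptor, which is included in the counts and medians, are not reported here.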

Additional observations from a re-analysis of the deposited data

How the results depend on the processing

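With 3 animals a group and a biological coefficient of variation of 0.28, standard errors were widest among scarce genes, up to 1.40 for Ccr9. Of 30 named tested genes, 20 kept their sign under every alternative run and 10 turned. DESeq2 called 5 genes and the edgeR exact test called 5, against 0 in the quasi-likelihood test and under the RLE, upper-quartile, filter, limma-voom, covariate and GC alternatives; the cause was not tested. The median log2 fold change was 0.72 under the filter of CPM 1 in 3 libraries, which left 35 tested genes, and 0.77 with the cornea marker covariate, where the ligand median was 0.96. With 1 animal left out, the number called was 0 to 3, and the number at an unadjusted p under 0.05 was 7 to 13. The number with groups apart in either direction was 12 to 20, and the number above 0 was 26 to 32. Over all genes in these fits, 8.55 to 23.0% were at that p, 26.5 to 42.1% had groups apart in either direction and 50.03 to 51.2% were above 0. The medians then ran from 0.14 to 0.79 over all tested chemokine genes, 0.43 to 0.87 over ligands and 0.12 to 0.47 over receptors.

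The sign turned with the cornea marker covariate for Ccl24 (0.11), Cxcl9 (-0.65) and Cxcr7 (-0.15), and with the GC correction for Ccl25 (-0.13) and Cx3cl1 (0.058). With 1 animal left out, the log2 fold change turned in 9 genes. It ran from -1.15 to 0.32 for Ccl22, from -2.13 to 0.23 for Ccl24, from -0.35 to 0.85 for Ccl25, from -0.26 to 0.023 for Cx3cl1 and from -1.03 to 0.12 for Cxcl11. For Cxcl12 it ran from -0.067 to 0.68, for Cxcl13 from -0.059 to 1.19, for Cxcr6 from -0.73 to 1.21 and for Cxcr7 from -0.089 to 0.20. The cause was not tested.

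With the animal number as a replicate block, 0 of the 41 tested chemokine genes were called, 9 were at an unadjusted p under 0.05 and the median was 0.57. The shares of all genes in that fit were not counted, so these numbers are not compared with a background. The Cxcl9 value was 1.55 with the block and 1.15 with limma-voom.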
